A study of Mus musculus with 4 samples.

Results

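The aquaporins, membrane channels that let water and in some cases glycerol cross cell membranes, were followed here through 9 genes, from Aqp1 to Aqp11, that carry probe sets on the array. All probe sets whose platform annotation gave exactly 1 gene symbol from this family list were taken, which gave 18 probe sets among the 45101 of the table and 9 genes among 18193 named ones. The tissue came from myocilin transgenic mice, which expressed the secreted glycoprotein myocilin in the aqueous humor, and from control mice, and the labels name it retina for both. Strain, age, sex and the promoter of the transgene are not given in the sources used here. Total RNA was measured on 4 arrays, 2 labelled transgenic and 2 labelled control. By its label, control array 2 repeats control array 1 as a technical replicate, so both were averaged to 1 control sample. The 2 transgenic arrays were taken as 2 samples, although nothing states that they came from separate animals. Each p-value thus rests on a spread between samples that may be technical only.

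An aquaporin works as a tetramer in which each subunit forms its own pore, and water moves through it along the osmotic gradient. Water-selective members pass little else, while aquaglyceroporins also pass glycerol. In the eye, these channels are known from the corneal epithelium and endothelium, the conjunctiva, the ciliary epithelium that secretes aqueous humor, the lens and the Mueller glia of the retina.

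Signals are linear intensities on arrays that all had a trimmed mean of 150. The label retina was set against markers. Mean signals exceeded 150 for 5 of 7 corneal epithelium genes, 4 of 5 conjunctival genes and 0 of 6 rod genes with a probe set. Ly6d and Clca2 of the corneal list and Muc5ac of the conjunctival list were dim. Krt12, the keratin of corneal epithelium, gave 13020 and 13173 on the transgenic arrays and 11441 and 10972 on the control arrays. Of the 6 rod genes, 5 had mean levels under the filter used for testing, a signal of about 30.0. Gnat1, Pde6b and Rcvrn, genes of rod phototransduction, gave at most 33.5 on any array. A lower signal in such tissue can mean fewer cells of a type or less RNA per cell, which cannot be told apart.

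Of the aquaporins, Aqp1, Aqp3 and Aqp5 gave signals well above the trimmed mean, and none of the 13 probe sets that could be tested passed the threshold. Changes are transgenic minus control on the scale log2(signal + 16), tested with limma and Benjamini-Hochberg adjustment at 0.05 over all 27022 probe sets with a mean level above the 40th percentile. The 13 tested probe sets belong to 7 genes, and the 5 others, among them both of Aqp7 and both of Aqp9, lay under the filter. In limma 0 of 13 passed, where 0.0777% of all tested probe sets did. At an unadjusted p under 0.05 there was 1, that of Aqp1, against 7.06% of all tested probe sets. The 2 transgenic arrays and the 2 control arrays did not overlap on 4 of the 13, against 44.7% of all tested probe sets. Of these 4, 2 were higher in transgenic, against 21.1% of all, and 2 were lower, against 23.6%. With each gene taken by its brightest probe set, the median log2 change over the 7 genes was −0.02, the same as over all tested probe sets. Of the 7 genes, 3 were above 0 and 4 below, where 46.9% of all tested probe sets were above 0. Levels are not ranked between genes, since brightness also depends on the probes.

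**Figure D1:**
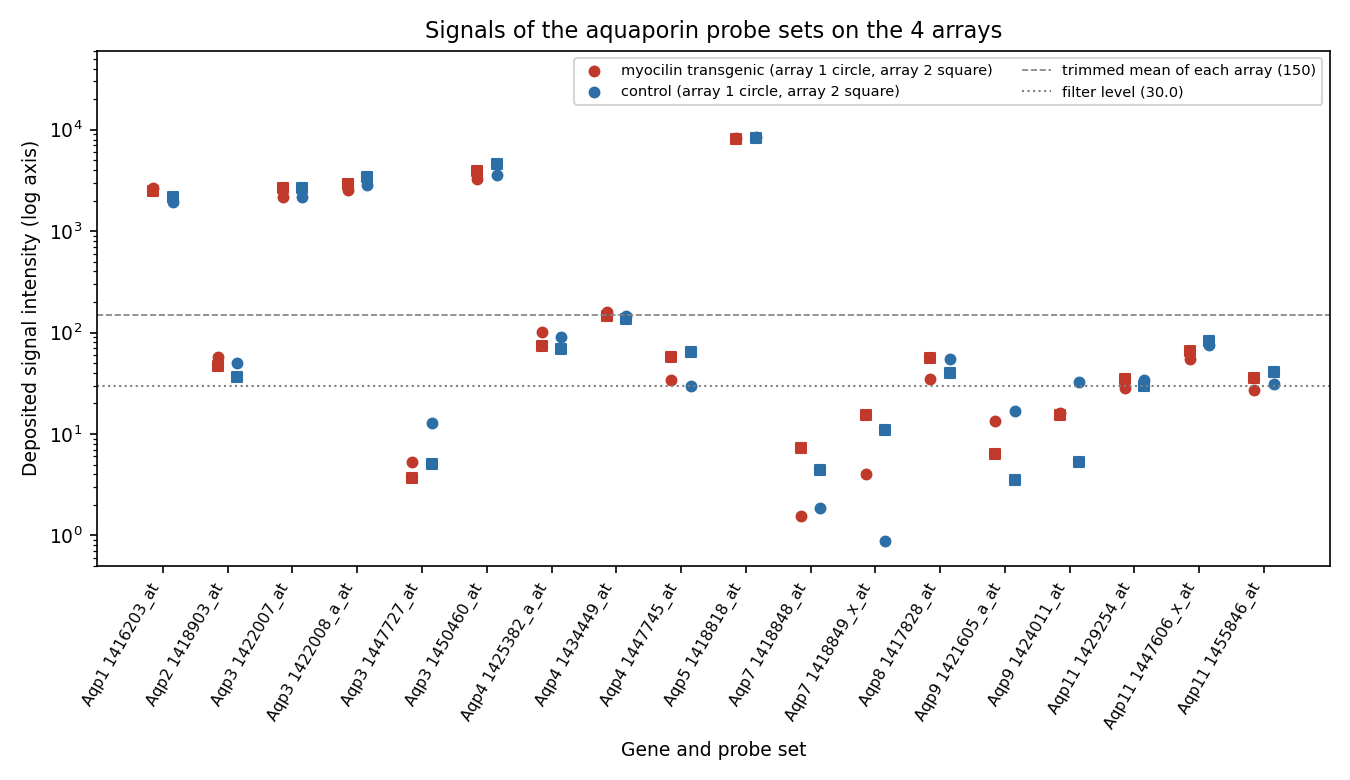
Deposited signal intensity (log axis) of the 18 aquaporin probe sets on the transgenic arrays (red) and the control arrays (blue), with array 1 as a circle and array 2 as a square. Aqp1, Aqp5 and 3 of the 4 probe sets of Aqp3 lie at 1949 or above on every array, and all probe sets of the other genes lie at 159 or below.

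The sequences just upstream of Aqp1, Aqp3 and Aqp5 are shown because these are the genes the arrays measured well. RefSeq promoters of the build GRCm38.p6 matched 8 of the 9 genes by symbol, and the 250 bases before the annotated start were searched on both strands. The motifs were TATAAA, the TATA box, GGGCGG, the GC box, and CACGTG, the only form of the E-box searched. None of these motifs overlapped another, and a match describes letters, not a bound site. Matches are in capitals, read 5′ to 3′ on the strand of the gene, from chr6:55336049-55336298 on the plus strand for Aqp1, chr4:41098184-41098433 on the minus strand for Aqp3 and chr15:99590778-99591027 on the plus strand for Aqp5.
Aqp1: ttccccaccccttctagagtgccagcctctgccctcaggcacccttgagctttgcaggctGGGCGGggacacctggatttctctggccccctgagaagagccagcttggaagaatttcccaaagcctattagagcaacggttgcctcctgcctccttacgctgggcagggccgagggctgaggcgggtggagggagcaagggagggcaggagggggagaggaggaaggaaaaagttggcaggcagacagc
Aqp3: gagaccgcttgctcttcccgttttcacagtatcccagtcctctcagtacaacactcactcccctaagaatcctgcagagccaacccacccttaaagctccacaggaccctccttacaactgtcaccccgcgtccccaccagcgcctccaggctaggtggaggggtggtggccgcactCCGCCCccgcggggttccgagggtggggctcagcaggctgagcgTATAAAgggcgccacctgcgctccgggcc
Aqp5: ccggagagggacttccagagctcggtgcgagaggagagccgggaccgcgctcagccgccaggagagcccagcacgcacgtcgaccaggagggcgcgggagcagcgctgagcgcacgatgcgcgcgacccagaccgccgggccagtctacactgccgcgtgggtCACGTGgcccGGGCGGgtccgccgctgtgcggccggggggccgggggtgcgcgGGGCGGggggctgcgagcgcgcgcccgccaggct
Aqp3 held the only TATAAA of the 8 genes, with its first base 29 bases before the start, where 12.4% of all promoters hold one within these 250 bases. GC boxes lay in Aqp1, in Aqp3 on the other strand and, as 2 copies, in Aqp5, and 32.7% of all promoters hold one. CACGTG lay in Aqp5, 87 bases before the start, and also in Aqp2 and Aqp8, which makes 3 of 8 genes against 6.02% of all promoters. The G and C content of the shown stretch was 78.4% for Aqp5, 64% for Aqp3 and 62.0% for Aqp1, against a median of 52.4% over all promoters.

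Among the water-selective members, Aqp1, the channel of corneal endothelium, keratocytes, blood vessel lining and red blood cells, had the widest separation between the groups relative to its replicate spread. Its single probe set (1416203_at) gave signals of 2631 and 2468 on the transgenic arrays, against 1949 and 2183 on the control arrays. Both transgenic arrays lay above both control arrays. The mean was 2550 ± 116 in transgenic samples (SD, n = 2) and 2066 in the control sample, a log2 change of 0.30 ± 0.10 (SE) with a limma adjusted p of 0.531. The unadjusted 95% interval of the change ran from 0.08 to 0.53, or from 1.06-fold to 1.44-fold on the same scale. The difference exceeded that between replicate arrays, which was 0.16 between the control arrays and −0.09 between the transgenic arrays (log2, second minus first). Among the 500 tested probe sets closest in level, the second minus first difference had an SD of 0.13 for the control arrays and 0.12 for the transgenic arrays.

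Markers of several tissues that carry Aqp1 are set beside it here, and their part in its values was not tested. Among 4 corneal endothelium genes with a probe set, all above 0, Slc4a11, a transporter of that layer, stood at 0.39 and Col8a1, a collagen of its basement membrane, at 0.27, while Col8a2 stood at 0.02. Their summed signal was 5365 and 5075 on the transgenic arrays and 4695 and 4529 on the control arrays. For red blood cells, Hba-a1 and Slc4a1 were dim, at mean signals of 18.9 and 43.5 in transgenic samples and 3.67 and 22.5 in the control sample, and Alas2, a heme synthesis gene, stood at 0.72. The red blood cell sum over 3 genes was 196 and 274 on the transgenic arrays and 113 and 136 on the control arrays. Of the vascular endothelium genes, Pecam1 stood at 0.14, Cdh5 at 0.05 and Tek at −0.29. In that list 2 of 5 tested were above 0, against 46.9% of all tested probe sets, and the median was −0.16. The summed signal of the list was 396 and 384 on the transgenic arrays and 521 and 416 on the control arrays. No gene of these 3 lists passed the test in limma. At an unadjusted p under 0.05 there were 2 of 4 corneal endothelium genes, 1 of 2 red blood cell genes and 0 of 5 vascular genes. The share over all tested probe sets was 7.06%. The tissue lists hold none for keratocytes. Ciliary epithelium genes, described with Aqp4 below, had a median of −0.11, with 1 of 5 above 0.

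Aqp5, the apical water channel of corneal epithelium and of lacrimal and salivary glands, was the bright member with the closest agreement between arrays. Its probe set (1418818_at) gave 8265 and 8162 on the transgenic arrays, against 8396 and 8293 on the control arrays. The transgenic arrays were just below the control arrays, by less than 0.05 on the log2 scale for any pair of arrays. The log2 change was −0.02 ± 0.09 (SE, limma adjusted p = 0.991), with an unadjusted 95% interval from −0.22 to 0.18. On the same scale that interval ran from 0.858-fold to 1.13-fold. The value depended on the scaling, at 0.01 when arrays were centred on their medians and at −0.21 after quantile normalization (limma adjusted p = 0.429, unadjusted p = 0.00758).

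The corneal epithelium genes, which share their tissue with Aqp5, were on balance slightly above 0 and none of 6 tested passed. Krt12 stood at 0.22, Krt5 at 0.01 and Krt14 at 0.05, and the median was 0.08. Of the 6 tested, 5 were above 0, against 46.9% of all tested probe sets, while Clca2, a dim gene, stood at −0.56. At an unadjusted p under 0.05 in limma there was 1 of the 6, Krt12, against 7.06% of all tested probe sets. The summed signal of the corneal epithelium list was 47925 and 52469 on the transgenic arrays and 46658 and 45416 on the control arrays. Of 6 lacrimal gland genes, 5 lay under the filter and the sum was 85.4 and 99.5 on the transgenic arrays and 75.8 and 71.2 on the control arrays. Lpo, the lactoperoxidase gene of that gland, had signals of 6.24 and 3.39 on the transgenic arrays and 5.76 and 2.09 on the control arrays, and Bhlha15 and Lcn11 were also dim, at or below 36.7 on every array.

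Aqp4, the channel of Mueller glia end feet, ciliary epithelium and fast muscle fibres, was represented by 3 probe sets near or below the trimmed mean. The brightest (1434449_at) gave 159 and 146 on the transgenic arrays, against 145 and 136 on the control arrays. The groups did not overlap, but by only 0.01 on the log2 scale between the closest arrays. The log2 change was 0.11 ± 0.20 (SE, limma adjusted p = 0.966), with an interval from −0.32 to 0.54. On the other probe sets the groups overlapped, with changes of 0.10 and 0.00. One of these (1447745_at) gave 33.9 and 56.7 on the transgenic arrays and 29.4 and 63.8 on the control arrays, so both second arrays were well above both first arrays.

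Genes known to anchor Aqp4 or to work beside it showed no change past the threshold either. Of 9 tested, 0 passed, 4 were above 0, against 46.9% of all tested probe sets, and the median was −0.08. The largest differences were those of Trpv4, an osmotically sensitive calcium channel, at −0.49 ± 0.40, Dtna, a dystrobrevin, at 0.35 ± 0.20, Dmd, dystrophin, at −0.31 ± 0.15, and Kcnj10, the glial potassium channel, at −0.26 ± 0.32 (log2, SE), with limma adjusted p between 0.747 and 0.943. Mueller glia genes other than Aqp4 had a median of 0.08 over 6, with Glul at 0.09, Rlbp1 at 0.49 and Slc1a3 at −0.06, and a sum of 13217 and 13551 on the transgenic arrays against 11855 and 12293 on the control arrays. Skeletal muscle genes had a median of 0.31 over 8, with Ckm at 0.48, Acta1 at 0.38 and Myh4 at −0.12, and a sum of 9986 and 10075 on the transgenic arrays against 7848 and 8380 on the control arrays. In both lists 0 genes passed in limma, and their part in the values of Aqp4 was not tested. There were 2 of 6 and 4 of 8 at a limma unadjusted p under 0.05, against 7.06% of all tested probe sets. Ciliary epithelium genes had a median of −0.11 over 5, with 0 passing, 0 at an unadjusted p under 0.05, Optc at −0.53, Wfdc1 at −0.04 and Tyrp1 at 0.13. Their sum was 8471 and 9499 on the transgenic arrays and 8399 and 8402 on the control arrays. Most of this sum came from Tyrp1, the only gene of the list above 0. Tyrp1 gave 7526 and 8551 on the transgenic arrays and 7371 and 7269 on the control arrays.

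Aqp2, the vasopressin-regulated channel of the kidney collecting duct, was dim. Its probe set (1418903_at) gave 57.4 and 47.2 on the transgenic arrays, against 50.2 and 36.7 on the control arrays, and the groups overlapped. The change was 0.21 ± 0.31 (SE, limma adjusted p = 0.959). In the RefSeq annotation Aqp2, Aqp5 and Aqp6 follow each other on chromosome 15 with no protein-coding gene between them. Of these neighbours, Aqp5 was the only one above the trimmed mean, and the brightest probe set of Aqp6, an intracellular family member, gave 23.4 and 36.3 on the transgenic arrays and 22.4 and 28.4 on the control arrays.

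**Figure D2:**
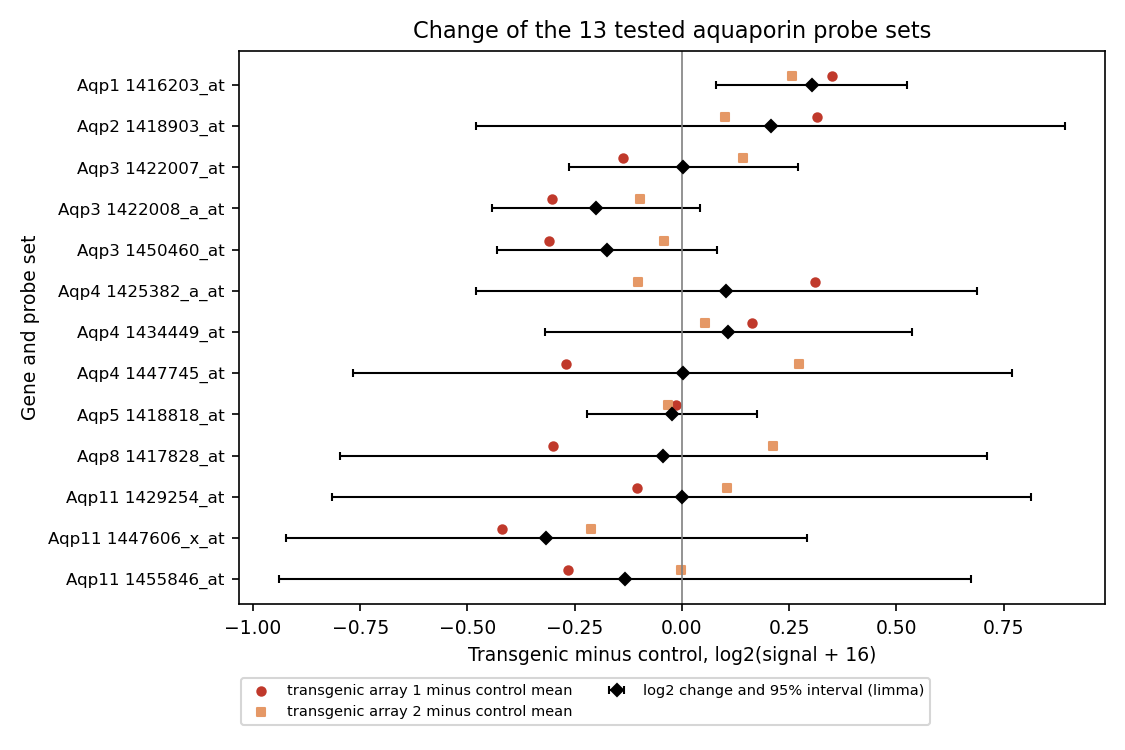
Log2 change, transgenic minus control on log2(signal + 16), of the 13 tested aquaporin probe sets with the unadjusted 95% limma interval (diamonds and bars), and each transgenic array minus the control mean (circles for array 1, squares for array 2). The interval lies above 0 for Aqp1 and spans 0 for the other 12, with the narrowest interval at Aqp5.

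Among the aquaglyceroporins, Aqp3, the basolateral water and glycerol channel of surface epithelia, differed more between replicate arrays than between groups. Its brightest probe set (1450460_at) gave 3279 and 3948 on the transgenic arrays, against 3600 and 4591 on the control arrays. A second bright probe set (1422008_a_at) gave 2516 and 2904 on the transgenic arrays and 2834 and 3406 on the control arrays. Another (1422007_at) gave 2178 and 2647 on the transgenic arrays and 2159 and 2658 on the control arrays. On all 3 the groups overlapped, and the second array of each group was above the first. These 3 probe sets were designed on 1 transcript record and are not independent measures of Aqp3.

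The changes of Aqp3 were −0.18 ± 0.12, −0.20 ± 0.11 and 0.00 ± 0.12 (log2, SE) in that order, with limma adjusted p of 0.838, 0.789 and 0.997. The differences between the technical control replicates were larger in size on each, at 0.35, 0.26 and 0.30. Those between the transgenic arrays were 0.27, 0.21 and 0.28. Tested probe sets close in level had an SD of 0.12 to 0.13 for either difference, so the replicate arrays differed for Aqp3 by over 1 SD on each probe set. The change depended on which arrays were used. Without the first control array it was −0.35, −0.33 and −0.15, and without the second −0.00050, −0.07 and 0.15, with no call in either case. Without the first transgenic array it was −0.04, −0.10 and 0.14, and without the second −0.31, −0.30 and −0.14, which left no test. Quantile normalization gave −0.28, −0.29 and −0.08, with limma adjusted p of 0.521, 0.459 and 0.955. The fourth probe set (1447727_at) was under the filter, at 5.34 and 3.65 on the transgenic arrays and 12.9 and 5.08 on the control arrays.

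Genes of the conjunctival epithelium, which also carries Aqp3, were all below 0 among the 4 tested, where 46.9% of all tested probe sets were above 0. The median of the 4 was −0.40. Krt4 stood at −0.36, Krt13 at −0.20 and Krt19 at −0.45, keratins of that epithelium. None passed in limma and 3 of 4 had an unadjusted p under 0.05, against 7.06% of all tested probe sets. The summed signal of the list was 9104 and 9323 on the transgenic arrays and 11287 and 12046 on the control arrays. Its part in the values of Aqp3 was not tested. Muc5ac, the goblet cell mucin of the same list, was dim at 30.7 and 13 on the transgenic arrays and 16.8 and 41.1 on the control arrays.

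**Figure D3:**
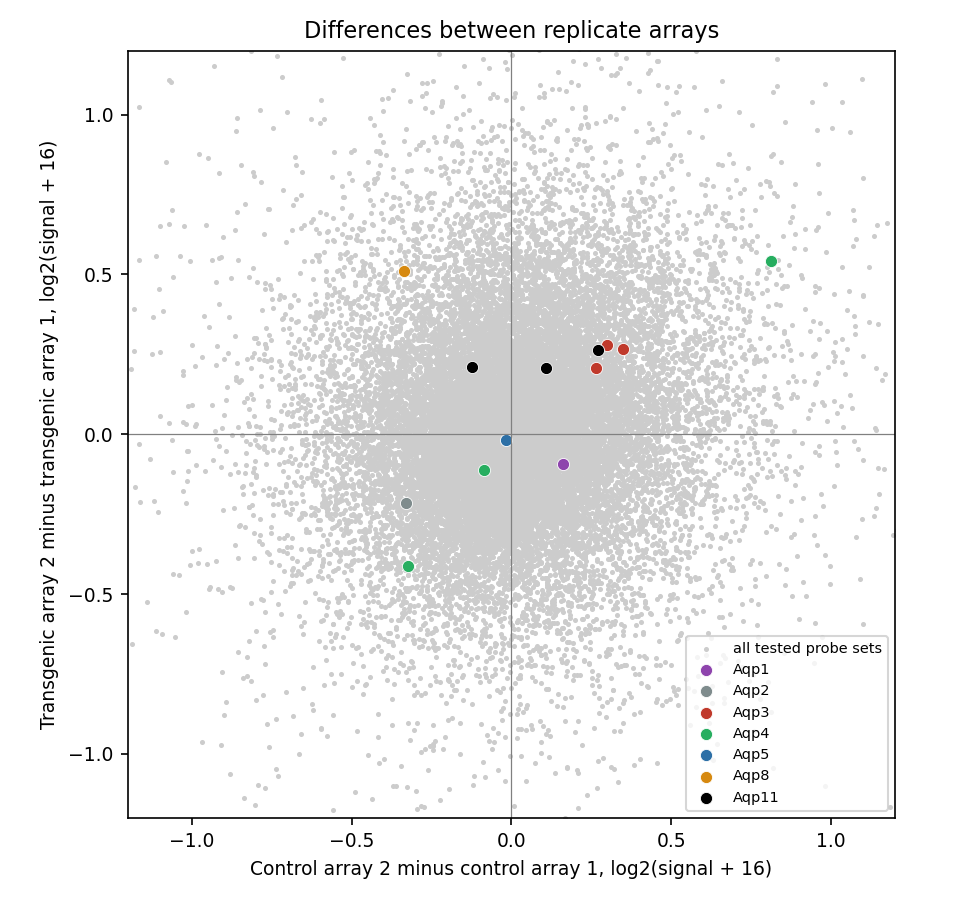
Second minus first array, on log2(signal + 16), within the transgenic group (vertical axis) and within the technical control replicates (horizontal axis), for all 27022 tested probe sets (grey, 237 of them outside the axes) and for the 13 aquaporin probe sets in colour. The 3 tested probe sets of Aqp3 lie together at 0.26 to 0.35 on the horizontal and 0.21 to 0.28 on the vertical axis, and Aqp5 lies close to 0 on both.

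Both replicate differences had the same sign on 10 of the 13 tested aquaporin probe sets, where 55.5% of all tested probe sets did. The 10 include all 3 tested probe sets of Aqp3 and all 3 of Aqp4, and probe sets of 1 gene are not independent. Over all tested probe sets the correlation of the 2 differences was 0.0955 (Pearson, a description over probe sets that share the same 4 arrays). The log2 change exceeded the replicate difference of both groups on 3 of the 13, those of Aqp1, Aqp5 and 1 of Aqp11, against 32.2% of all tested probe sets.

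Aqp7, the glycerol exit channel of fat cells, lay under the filter on both probe sets, and no signal exceeded 15.3. The brighter (1418849_x_at) gave 4.01 and 15.3 on the transgenic arrays and 0.889 and 10.8 on the control arrays, with overlapping groups. The adipocyte markers Adipoq, Cidec and Lep also had signals at or below 17.4 on every array, while Fabp4, a fatty acid carrier of fat and blood vessel cells, gave 314 and 246 on the transgenic arrays and 170 and 192 on the control arrays. The adipocyte sum over 5 genes was 384 and 310 on the transgenic arrays and 242 and 248 on the control arrays. In limma 0 of 2 tested genes passed, with 1 at an unadjusted p under 0.05, against 7.06% of all tested probe sets. Aqp3 is the neighbour of Aqp7 in the RefSeq annotation, with no protein-coding gene between them on chromosome 4, and had bright signals.

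Aqp9, the glycerol and urea channel of liver and white blood cells, was also under the filter. The brighter of its probe sets (1424011_at) gave 16 and 15.3 on the transgenic arrays, against 32.5 and 5.23 on the control arrays. The control arrays, which are technical replicates, lay on either side of the transgenic arrays. The other probe set (1421605_a_at) gave 13.3 and 6.35 on the transgenic arrays and 16.8 and 3.49 on the control arrays. The 4 tested neutrophil genes had a median of 0.15, with S100a8 at 0.41, S100a9 at 0.35 and Ngp at −0.05. None of them passed in limma and 0 had an unadjusted p under 0.05, against 7.06% of all tested probe sets. The neutrophil sum over 5 genes was 436 and 380 on the transgenic arrays and 374 and 368 on the control arrays.

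Genes that handle glycerol, the second cargo of Aqp3, Aqp7 and Aqp9, were above 0 for 2 of 8 tested, against 46.9% of all tested probe sets. The list median was −0.11 and none of the 8 passed the threshold. The largest differences were those of Gk5, annotated as a glycerol kinase, at −0.60 ± 0.26, Gpd2, the mitochondrial glycerol phosphate dehydrogenase, at −0.40 ± 0.14, Mgll, the monoglyceride lipase, at 0.20 ± 0.10 and Pnpla2, the triglyceride lipase of fat droplets, at −0.17 ± 0.19 (log2, SE). Their limma adjusted p ran from 0.547 to 0.939. Of the 8 genes, 2 had an unadjusted p under 0.05, against 7.06% of all tested probe sets.

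Of the remaining members, Aqp8, a water and ammonia channel known from liver, pancreas and gut, gave 35 and 56.7 on the transgenic arrays, against 54.5 and 39.9 on the control arrays. The groups overlapped and the change was −0.04 ± 0.34 (SE, limma adjusted p = 0.995). Aqp11, an intracellular member with an altered pore motif, had 3 tested probe sets, all dim. The brightest (1447606_x_at) gave 54.8 and 65.8 on the transgenic arrays, against 75.2 and 82.4 on the control arrays. Here the groups did not overlap, and the change was −0.32 ± 0.28 (SE, limma adjusted p = 0.897). The technical replicates differed with an SD of 0.34 at that level. That SD is for single arrays, whereas the change is between means of 2 arrays. The other probe sets of Aqp11 stood at −0.13 and −0.00056 with overlapping groups.

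Of the family genes outside the 9, none was tested. Mip, the main channel of lens fibres, gave 2.42 and 11.8 on the transgenic arrays and 6.52 and 1.51 on the control arrays on the brighter of its probe sets, and the brightest of Aqp6 and the only one of Aqp12 lay under the filter as well. Among the lens genes of which Mip is one, Cryaa, a crystallin of the lens fibres, gave 102 and 100.4 on the transgenic arrays and 9.47 and 17.7 on the control arrays. Cryba1 gave 136 and 154 on the transgenic arrays and 19.3 and 32.5 on the control arrays, and Crybb2 gave 55.3 and 61.1 on the transgenic arrays and 18.7 and 22.2 on the control arrays. All 3 had control means under the filter level and entered the test through the transgenic arrays alone, so no call is read from them. Without the filter, 0 probe sets of the whole table passed in limma, with 2181 at an unadjusted p under 0.05. The lens sum was 493 and 504 on the transgenic arrays and 142 and 200 on the control arrays.

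Genes of the response to osmotic stress were above 0 for 2 of 9 tested, against 46.9% of all tested probe sets. The list median was −0.12, and none of the 9 passed. Slc6a6, the taurine transporter, stood at −0.28 ± 0.12, Nfat5, the transcription factor that responds to high tonicity, at −0.18 ± 0.19, Wnk1, a kinase that senses chloride, at −0.16 ± 0.11 and Stk39, a kinase downstream of it, at −0.15 ± 0.25 (log2, SE). Their limma adjusted p ran from 0.665 to 0.962. Of the 9 genes, 1 had an unadjusted p under 0.05, against 7.06% of all tested probe sets.

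**Figure D4:**
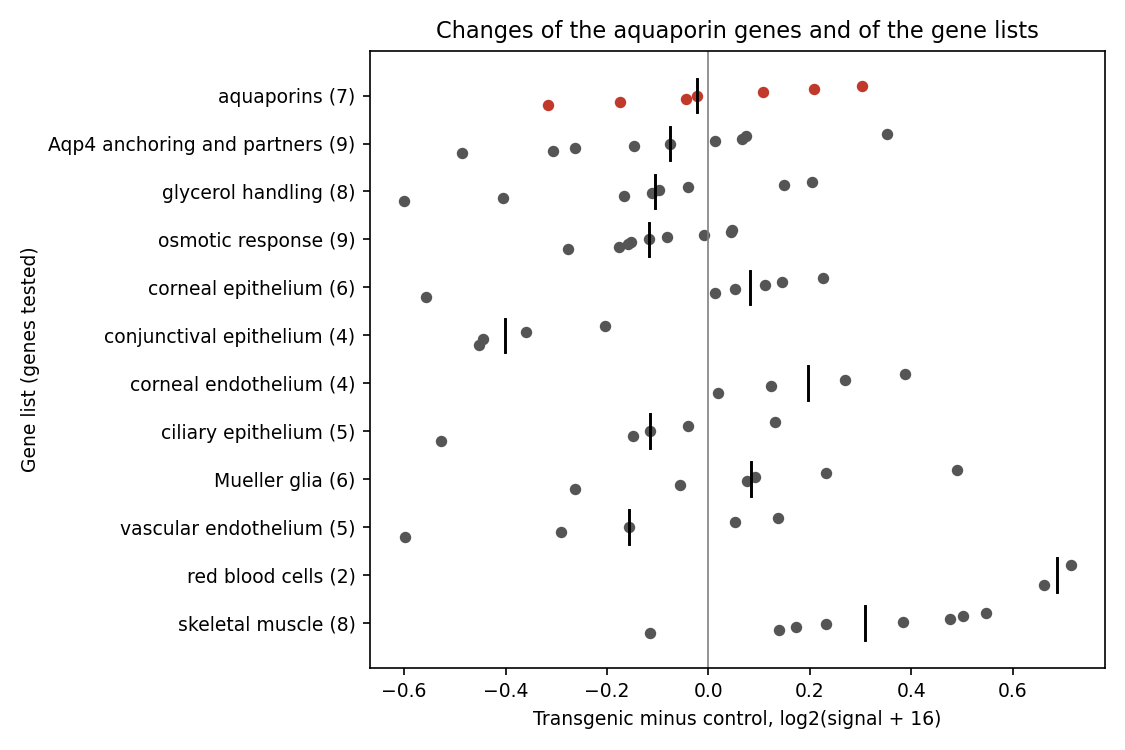
Log2 change, transgenic minus control on log2(signal + 16), of each tested gene by its brightest probe set, for the 7 aquaporin genes (red) and for gene lists of partners, pathways and tissues (grey), with a vertical bar at each median. The aquaporin genes spread from −0.32 to 0.30 around a median of −0.02, while conjunctival genes centre on −0.40 and skeletal muscle genes on 0.31.

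The genes whose pattern over the 4 arrays was nearest to that of Aqp1 were Cenpk, Selenom and Tmem106b. Their Euclidean distances from Aqp1, over the deviations of the 4 log2 values from their mean, were 0.0126, 0.0180 and 0.0237. None passed the test, with changes between 0.29 and 0.31. For the brightest probe set of Aqp11, the other aquaporin with the largest change in size, the nearest were Csnk2a1, Jag1 and Slc22a18, at distances of 0.0215 to 0.0265. With 4 arrays from 3 samples, such nearness describes these arrays only.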

How the data were processed

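Total RNA of tissue labelled retina was hybridised to 4 one-colour oligonucleotide arrays. The deposited values were linear signal intensities, as the values show, and the software and settings behind them are not given in the sources used here. Trimmed means, after leaving out 2% of the probe sets at each end, were 150 on all arrays, so the intensities were used as deposited. No detection calls were used. Precision is limited by the small number of arrays. Of the probe sets, 64 array controls were left out. Platform annotation gave 34958 probe sets 1 symbol, 932 several and 9211 none.

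Signals were transformed as log2(signal + 16), and changes on this scale understate those of dim probe sets. Control arrays were averaged. The fit used limma 3.58.1 in R 4.3.3 with the intensity trend and two-sided tests, with 1 residual and 10.3 prior degrees of freedom. The control sample, being alone, was taken to vary as the transgenic samples do. Lists are described by counts and medians only, with each gene taken by its brightest probe set and with aquaporins left out of tissue lists. The members, lists and motifs were chosen with earlier results of these data known. Named are all aquaporin probe sets, up to 4 tested genes of each pathway list by size of change, the first 3 genes and any passing gene of each tissue list, and the 3 probe sets nearest to the 2 aquaporin probe sets of largest change. Muc5ac, Ly6d, Clca2 and Fabp4 were added after their values were seen. Alternatives were other scalings, pseudocounts, filters, moderation, designs and leaving out each array.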

Additional observations from a re-analysis of the deposited data

How the results depend on the processing

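No aquaporin probe set passed in 11 of 12 alternatives with a test, among them both scalings, both pseudocounts, both filters and the removal of either control array, where the count was 0 throughout (limma, with 1 to 4 at an unadjusted p under 0.05 except without the intensity trend, where it was 0). The exception took all 4 arrays as separate samples with the replicate number as a block: 3 passed, Aqp1 at 0.30 (adjusted p = 0.00231, against 0.131 to 0.999 in the other alternatives) and Aqp3 at −0.20 (0.0258, against 0.385 to 0.999) and −0.18 (0.0418, against 0.389 to 1.00). The replicate block also called 1740 probe sets in all, against 21, and takes technical replicates for samples. Like the main fit, it leaves 1 residual degree of freedom. The labels do not pair the numbers, and the replicate differences correlated at 0.0955.

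The count over all probe sets was 39 after quantile normalization (20 higher, 19 lower), 56 after median centring (47 higher, 9 lower), 135 with 4 arrays as separate samples, 0 without the filter and 0 without the trend (2181 and 1059 at an unadjusted p under 0.05), against 15 higher and 6 lower among the 21. It ran from 14 without control replicate 1 to 33 without control replicate 2. The median change of the aquaporin genes was 0.043 with the 60th percentile filter, which left fewer genes, and ran from −0.014 to 0.12 leaving out 1 array, highest without control replicate 1.

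Of 13 probe sets, 7 turned sign somewhere, none of them called, and the cause was not tested. After quantile normalization Aqp3 (1422007_at) turned to −0.083 and Aqp11 (1429254_at) to 0.016. After median centring Aqp5 turned to 0.0075 and Aqp11 (1429254_at) to 0.030. At a pseudocount of 64 Aqp4 (1447745_at) turned to −0.0067 and Aqp11 (1429254_at) to 0.00035. Leaving out 1 array, Aqp3 (1422007_at) ran from −0.15 to 0.15, Aqp4 from −0.40 to 0.41 (1447745_at) and from −0.10 to 0.31 (1425382_a_at), Aqp8 from −0.30 to 0.21 and Aqp11 from −0.11 to 0.10 (1429254_at) and from −0.27 to 0.0020 (1455846_at). Removing a transgenic array left no test.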
